A study of Mus musculus with 54 samples.

Results

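Markers of Kupffer cells and of other macrophages were followed in RNA-seq of whole mouse liver. The 38 markers were taken by gene symbol from the expression table, and 37 of them are among its 13815 genes. Expression of Ly6c2 is not analysed here, and this gene enters only the promoter counts. By known role, the list holds 11 resident Kupffer cell markers, 5 lipid-associated macrophage markers, 4 recruited monocyte markers (3 measured), 11 general macrophage markers and 7 uptake and Fc receptors. Every member is counted below with its class, and values by library are given for those on which the results turn.

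Kupffer cells are the resident macrophages of the liver. They sit in the sinusoids and clear particles, iron and lipoproteins with scavenger and complement receptors such as Marco, Vsig4, Timd4 and Cd163. In fatty liver injury, monocytes with the chemokine receptor Ccr2 enter the tissue, and macrophages with Trem2, Cd9, Spp1 and Lgals3 gather around lipid-laden hepatocytes, where they take up and digest lipid.

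All mice carried floxed Flcn. Flcn encodes folliculin, which brings the Rag GTPases to act on mTORC1 and so keeps the transcription factor TFE3 out of the nucleus. LiFKO mice received 1.5e11 genome copies of AAV8-TBG-Cre and Control mice the same dose of AAV8-TBG-GFP; TBG is a promoter used for its activity in hepatocytes. DKO mice were Flcn floxed, Tfe3-/Y in every cell, macrophages included, and received AAV8-TBG-Cre. The groups with RNA-seq were AMLN DKO, AMLN LiFKO, AMLN Control, chow LiFKO and chow Control, with 3 libraries each. AMLN is a high-fat, high-fructose, cholesterol-enriched diet used to bring on steatohepatitis. Diets were given for 17 to 18.5 weeks, and livers were taken after a fast of 4 to 6 h. No RNA-seq group lacked Tfe3 alone (Tfe3KO livers entered only the ChIP-seq, with 2 libraries on chow and 1 on FPC diet), so an effect of Tfe3 loss in hepatocytes and one in macrophages cannot be told apart. In whole liver, fewer cells of a type and less RNA per cell cannot be told apart either. The labels do not say whether libraries of a group came from separate litters or days, so the p-values measure the spread between these libraries.

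Flcn was 10.55, 10.14 and 10.53 in chow LiFKO libraries, against 11.33, 11.55 and 11.44 in chow Control libraries, on the log2 scale of the authors' normalized values, a drop in every LiFKO library. On AMLN diet Flcn was 9.12, 9.45 and 9.91 in the libraries labelled DKO, 10.25, 10.56 and 10.43 in LiFKO and 10.98, 10.92 and 11.05 in Control. The DKO libraries thus had less Flcn RNA than LiFKO as well (log2 fold change -0.93, limma adjusted p = 0.00242), so these groups differed in Flcn level and not in Tfe3 genotype alone. LiFKO against Control on AMLN had -0.57 (adjusted p = 0.0257), which missed the threshold without AMLN Control replicate 1 (-0.57) or 3 (-0.53), without replicate 1 (-0.49) or 3 (-0.58) of AMLN LiFKO, and with hepatocyte centring (adjusted p = 0.0618). Tfe3 was 10.20, 9.88 and 9.89 in the libraries labelled DKO, against 9.92, 10.02 and 10.07 in AMLN LiFKO and 10.20, 10.30 and 10.23 in AMLN Control. Tfe3 RNA therefore did not mark the DKO libraries; a value per gene cannot show which exons are present. AMLN DKO replicate 1 stood apart from its group in the lipid-associated markers. These 5 markers averaged 9.90 there, against 8.59 and 8.14 in the other DKO libraries. AMLN Control replicate 3 stood apart on the second principal component of all genes, at -11.4 against -37 and -31.9 in replicates 1 and 2. The AMLN DKO libraries spread on this component as well, at -30, -18.2 and -2.1 in replicates 1, 2 and 3. Hepatocyte markers were high in all 15 libraries, with a mean of their log2 values between 17.07 and 17.74. Values are not per length, so levels of different genes are not compared. Reads were counted by the authors and no counts were used here, so depth is unknown. As a sign of coarse steps at low values, Trem2 shared its value in each library with between 14 and 99 other genes of that library. The numbers were 25 to 127 for Ccr2, 27 to 98 for Cx3cr1, 28 to 94 for Itgax and 29 to 111 for Itgam. Members at higher levels shared values too, with 10 to 35 other genes for Cd9 and 11 to 44 for Timd4.

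RefSeq promoters (GRCm38.p6, the 250 bases before the start, 5' to 3' on the gene's strand) are shown for 4 members that recur below: Cd68 and Cd9 because they changed with Flcn loss on chow, Spp1 as a lipid-associated marker, and C1qc as a resident one. Capitals mark GAGGAA or its reverse complement TTCCTC, the core of the motif bound by the macrophage factor PU.1, and in Spp1 and C1qc the longer GAGGAAGT or its reverse complement ACTTCCTC, which contains that core; Cd9 holds neither. For Spp1 the RefSeq table gives a second start; the first is shown, and the 250 bases before the second (chr5:104435942-104436191) hold neither.
Cd68 (chr11:69666171-69666420, minus strand): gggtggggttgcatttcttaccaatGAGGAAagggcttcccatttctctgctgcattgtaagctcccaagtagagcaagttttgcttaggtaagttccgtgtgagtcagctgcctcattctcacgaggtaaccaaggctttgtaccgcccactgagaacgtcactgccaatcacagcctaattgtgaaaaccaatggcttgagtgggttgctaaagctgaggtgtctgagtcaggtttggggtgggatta
Cd9 (chr6:125494761-125495010, minus strand): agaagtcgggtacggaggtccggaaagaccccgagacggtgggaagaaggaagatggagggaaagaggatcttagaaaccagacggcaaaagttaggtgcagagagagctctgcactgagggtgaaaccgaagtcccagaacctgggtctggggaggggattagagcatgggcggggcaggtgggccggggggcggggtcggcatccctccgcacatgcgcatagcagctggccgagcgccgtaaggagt
Spp1 (chr5:104434861-104435110, plus strand): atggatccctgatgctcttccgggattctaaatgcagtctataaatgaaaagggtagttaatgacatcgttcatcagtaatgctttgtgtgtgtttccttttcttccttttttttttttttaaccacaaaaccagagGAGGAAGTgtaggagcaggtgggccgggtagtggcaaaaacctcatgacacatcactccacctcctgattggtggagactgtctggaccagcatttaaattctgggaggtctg
C1qc (chr4:136892915-136893164, minus strand): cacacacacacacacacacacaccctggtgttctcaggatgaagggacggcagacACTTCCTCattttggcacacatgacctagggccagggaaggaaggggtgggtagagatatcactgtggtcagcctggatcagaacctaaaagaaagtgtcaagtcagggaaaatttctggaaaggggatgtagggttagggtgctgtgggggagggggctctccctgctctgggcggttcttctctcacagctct
The table of promoters held 31 of the 38 members. GAGGAA on either strand was found in the 250 bases of 17 of these 31 genes (54.8%), against 25.9% of the 27025 genes with a promoter, and was searched after the Cd68 letters had been seen. GAGGAAGT was found in 3 of 31 (C1qc, Ly6c2 and Spp1, 9.68%), against 2.79% of all genes. CACGTG, the E-box core bound by TFE3, was found in 0 of the 31, against 6.86% of all genes, and likewise 0 held the longer TCACGTGA (0.907% of all genes, contains CACGTG) or TCATGTGA (0.984%). These letters describe the window only.

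Resident and lipid-associated markers took different courses over the 5 groups. Averaged over the 11 resident markers, the log2 level was 11.27, 10.78 and 11.13 in AMLN DKO, 11.17, 11.84 and 12.06 in AMLN LiFKO, 11.16, 11.01 and 11.31 in AMLN Control, 11.06, 11.24 and 10.74 in chow LiFKO and 10.67, 11.66 and 11.16 in chow Control. These ranges overlap between all 5 groups except that 2 of the 3 AMLN LiFKO libraries lie above every other library. The 5 lipid-associated markers averaged 9.87, 9.72 and 9.28 in AMLN Control, against 7.13, 7.40 and 7.46 in chow Control, and 8.29, 8.71 and 8.82 in AMLN LiFKO, against 7.70, 7.64 and 7.96 in chow LiFKO. All AMLN libraries were above all chow libraries of the same genotype, and AMLN LiFKO lay below AMLN Control in every library.

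**Figure D1:**
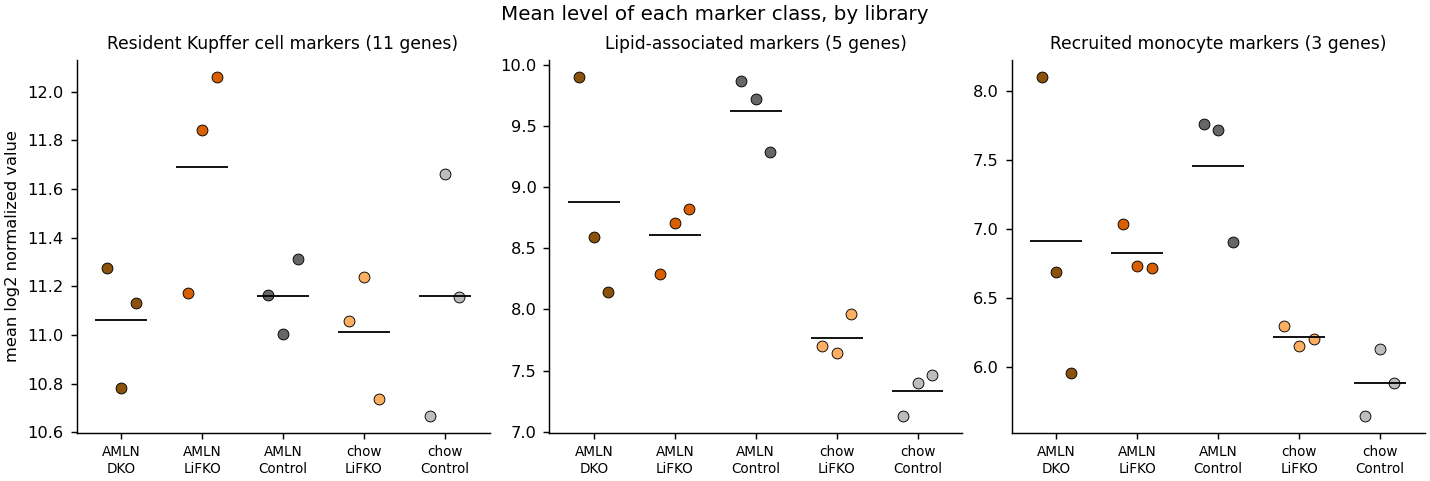
Mean log2 normalized value of each marker class (y axis, separate ranges per panel) for each of the 3 libraries of the 5 groups (points) with group means (lines). Lipid-associated markers sit between 9.28 and 9.87 in AMLN Control and between 7.13 and 7.46 in chow Control, while the resident markers of the groups overlap.

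The mean of the resident markers minus the mean of the lipid-associated markers was 1.38, 2.19 and 2.99 in AMLN DKO, 2.89, 3.14 and 3.24 in AMLN LiFKO and 1.30, 1.29 and 2.03 in AMLN Control. It was 3.36, 3.60 and 2.77 in chow LiFKO, against 3.54, 4.26 and 3.69 in chow Control. AMLN LiFKO libraries were above all AMLN Control libraries and inside the range of chow LiFKO. DKO libraries ran from the level of AMLN Control, in replicate 1, to that of AMLN LiFKO, in replicate 3. This difference is a description of the libraries and carries no test. Against the 3 measured recruited monocyte markers in place of the lipid-associated ones, the difference was 3.17, 4.10 and 5.17 in AMLN DKO, 4.14, 5.11 and 5.35 in AMLN LiFKO and 3.40, 3.29 and 4.41 in AMLN Control, so that the groups overlapped. It was 4.76, 5.09 and 4.54 in chow LiFKO and 5.02, 5.53 and 5.28 in chow Control.

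**Figure D2:**
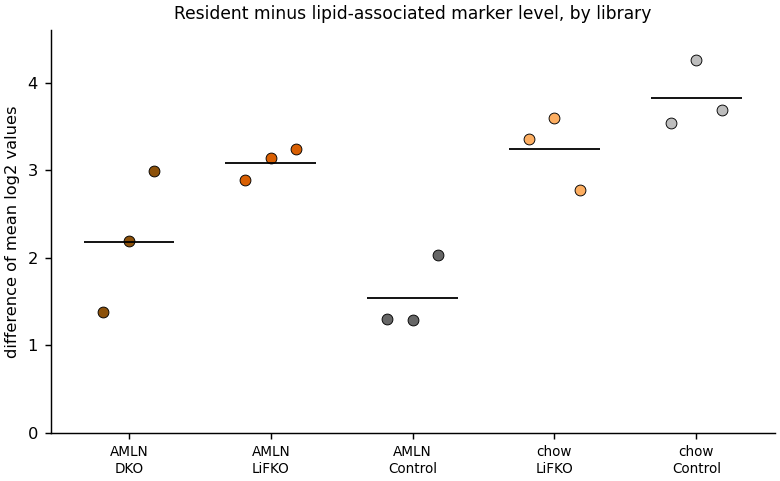
Mean log2 value of 11 resident Kupffer cell markers minus that of 5 lipid-associated markers (y axis, from 0) by library (points) with group means (lines). AMLN LiFKO, between 2.89 and 3.24, lies above AMLN Control, between 1.29 and 2.03, and the 3 DKO libraries spread from 1.38 to 2.99.

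In chow-fed liver, LiFKO liver had more Cd68, Cd9 and Mpeg1 and less Mertk than Control, and 0 of the 11 resident markers passed the threshold. Of 37 members, 3 were higher and 1 was lower in LiFKO (limma over all genes, Benjamini-Hochberg adjusted p under 0.05), where 12.5% of all genes were higher and 13.2% lower. At unadjusted p under 0.05 the members' counts were the same, 3 and 1, where 16.7% of all genes were higher and 20% lower. Cd68, a lysosomal membrane glycoprotein used to stain macrophages, was 10.72, 11.10 and 11.37 in chow LiFKO, against 8.51, 9.17 and 8.84 in chow Control. Every LiFKO library was above every Control library, and the log2 fold change was 2.22 (SE 0.27, adjusted p = 3.74e-05). Cd9, a tetraspanin of lipid-associated macrophages that other cells also make, was 9.78, 9.77 and 10.26 in chow LiFKO and 8.72, 8.88 and 8.67 in chow Control. Its log2 fold change was 1.18 (SE 0.18, adjusted p = 0.000222), and both genes stayed called without any 1 library. Mpeg1, the pore protein perforin-2 of phagosomes, was 13.08, 13.07 and 12.68 in chow LiFKO, against 11.73, 12.21 and 11.62 in chow Control. The groups did not overlap, with a log2 fold change of 1.09 (SE 0.31, adjusted p = 0.0185), but 4 of the 6 fits with 1 library left out missed the threshold: those without chow LiFKO replicate 1 (1.02) or 2 (1.03) and those without chow Control replicate 1 (1.03) or 3 (0.97). Mertk, a receptor for dying cells, was 10.57, 10.72 and 10.53 in chow LiFKO and 10.83, 11.14 and 11.02 in chow Control. Its log2 fold change was -0.39 (SE 0.11, adjusted p = 0.0167), and it missed the threshold without chow LiFKO replicate 1 (-0.37) or 3 (-0.35) or chow Control replicate 2 (-0.32), and when libraries were centred on hepatocyte markers (-0.26, adjusted p = 0.245). The other lipid-associated markers were not called: Spp1, which encodes osteopontin and which cholangiocytes also make, had a log2 fold change of 0.61, Lgals3 0.53, Itgax 0.84 and Trem2 -0.97, with adjusted p of 0.357, 0.34, 0.304 and 0.393. Hepatocyte centring moved the median of all genes by 0.13 and gave 1741 genes higher and 630 lower, against 1723 and 1822 as deposited, with 3 members higher and 0 lower.

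**Figure D3:**
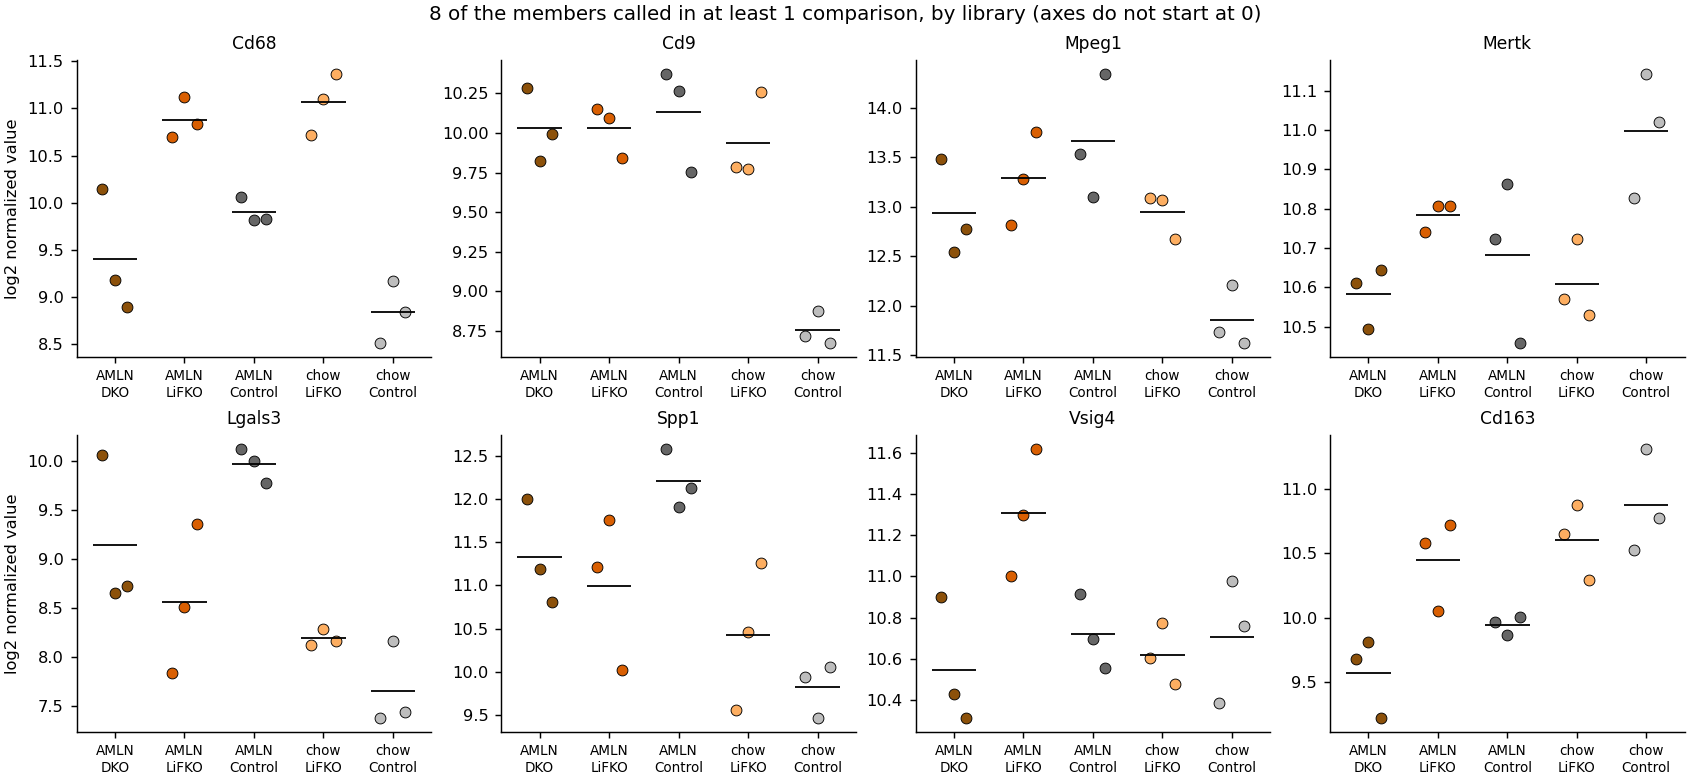
log2 normalized value (y axis, separate ranges that do not start at 0) of 8 members in the 3 libraries of each group (points) with group means (lines). Cd68 is high in both LiFKO groups, Lgals3 and Spp1 are highest on average in AMLN Control, and Cd163 is lowest on average in DKO.

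Other genes tied to lipid-associated macrophages, which hold many lysosomal genes, were mostly higher in chow LiFKO. Of 14 such genes, 11 were higher and 0 lower in chow LiFKO (13 and 0 at unadjusted p under 0.05), with a median log2 fold change of 1.02, against -0.05 over all genes and -0.05 over the members. Those with the smallest p were Cd63 (log2 fold change 5.26), Ctsl (1.36), Ctsb (0.99) and Ctsd (0.85), all of the endosomal and lysosomal system. Of 18 lysosomal genes that are not in that list, 15 were higher, with a median of 0.72. Of the 12 other leukocyte genes, including the pan-leukocyte Ptprc, 0 were called in either direction, also at unadjusted p under 0.05. Of 16 macrophage regulators and growth factors, 3 were higher (Maf, Id3 and Csf2rb) and 1 was lower, Irf5 at -1.50 (adjusted p = 0.000836). Hepatocyte markers averaged 17.37 to 17.67 in chow LiFKO and 17.51 to 17.74 in chow Control, with 1 of 12 higher (Ass1) and 1 lower (Alb). Endothelial Stab2 and Lyve1 were higher, 2 of 11 endothelial markers, whose mean was 10.72 to 10.92 in chow LiFKO and 10.58 to 10.92 in chow Control. Of 6 erythroid genes, 3 were lower, and their mean was 11.10 to 11.65 in chow LiFKO, against 11.87 to 12.96 in chow Control. The part of these cell types in the macrophage values was not tested.

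On AMLN diet, LiFKO liver had less Lgals3 and more Cd68, Vsig4 and Mrc1 than Control. Of 37 members, 3 were higher and 1 was lower (limma, adjusted p under 0.05), where 10.1% of all genes were higher and 9.63% lower. Lgals3, the lectin galectin-3 of lipid-associated macrophages, was 7.84, 8.51 and 9.36 in AMLN LiFKO, against 10.13, 10 and 9.77 in AMLN Control. Every LiFKO library was below every Control library, with a log2 fold change of -1.40 (SE 0.38, adjusted p = 0.0174). Leaving out AMLN LiFKO replicate 1 (-1.03) or AMLN Control replicate 1 (-1.32) ended the call. Cd68 was 10.69, 11.12 and 10.83 in AMLN LiFKO and 10.06, 9.82 and 9.82 in AMLN Control, a log2 fold change of 0.98 (SE 0.27, adjusted p = 0.018) that missed the threshold without replicate 2 of AMLN LiFKO (0.86) or of AMLN Control (0.94). Vsig4, the complement receptor CRIg of Kupffer cells, was 11.002, 11.30 and 11.62 in AMLN LiFKO, against 10.91, 10.70 and 10.55 in AMLN Control. The mannose receptor Mrc1 was 11.93, 12.13 and 12.15 in AMLN LiFKO, against 11.78, 11.42 and 11.72 in AMLN Control. Neither gene overlapped between the groups, with log2 fold changes of 0.59 (adjusted p = 0.0413) and 0.43 (adjusted p = 0.0444). Both calls were lost with the replicate block (adjusted p = 0.0606 and 0.0664), with hepatocyte centring (adjusted p = 0.0577 and 0.0592), and without replicate 2 or 3 of either group, with fold changes from 0.43 to 0.74 for Vsig4 and from 0.32 to 0.50 for Mrc1 over the libraries left out.

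By class, called members included, all 5 lipid-associated markers had a negative fold change on AMLN diet, with a median of -1.21. Of 11 resident markers, 10 had a positive one, with a median of 0.45. In the other classes, 7 of 11 general markers, 4 of 7 uptake and Fc receptors and 1 of 3 recruited markers were positive. Over all 13815 genes, 6640 were positive and 7175 negative, and the median was -0.02. Trem2, the lipid receptor of lipid-associated macrophages, was 5.92, 5.53 and 6.22 in AMLN LiFKO, against 7.92, 8.07 and 6.55 in AMLN Control. The groups did not overlap, but the log2 fold change of -1.62 missed the threshold (SE 0.76, adjusted p = 0.159); it passed when only these 2 groups were fitted (adjusted p = 0.0406). Spp1 was 11.21, 11.76 and 10.03 in AMLN LiFKO, against 12.58, 11.90 and 12.13 in AMLN Control (log2 fold change -1.21, adjusted p = 0.0732). Cx3cr1, the fractalkine receptor of monocytes, was 6.74, 4.996 and 5.44 in AMLN LiFKO, against 7.43, 7.82 and 6.79 in AMLN Control (-1.62, adjusted p = 0.0655). Ccr2 was 7.39, 7.05 and 7.14 in AMLN LiFKO, against 8.41, 8.11 and 7.65 in AMLN Control (-0.86, adjusted p = 0.264). These 3 genes did not overlap between the groups, but none was called, and the share of all genes without overlap was not counted. Among resident markers, the iron exporter Slc40a1 was 14.01, 13.89 and 14.23 in AMLN LiFKO, against 13.51, 13.42 and 13.37 in AMLN Control (0.61, adjusted p = 0.0511, and 0.0345 with the replicate block). The scavenger receptor Marco was 8.83, 12.56 and 11.44 in AMLN LiFKO, against 8.39, 8.39 and 8.91 in AMLN Control, and overlapped (2.38, SE 0.92, adjusted p = 0.0866). Timd4, the phosphatidylserine receptor of embryonically derived Kupffer cells, was 8.55, 10.15 and 9.85 in AMLN LiFKO, against 8.62, 7.98 and 8.87 in AMLN Control (1.03, adjusted p = 0.0948). AMLN LiFKO replicate 1 was the low library for both Marco and Timd4, and without it their adjusted p was 0.0155 and 0.0148. The same library was also the low one in the mean of the erythroid markers (10.98, against 12.72 and 12.78 in the other AMLN LiFKO libraries) and of the neutrophil markers (5.82, against 6.88 and 8.05); their part in these values was not tested. Without AMLN LiFKO replicate 1 Cx3cr1 also passed (adjusted p = 0.0293), and without AMLN LiFKO replicate 2 Spp1 (0.0316) and Cd163 (0.0473).

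Among the other listed genes on AMLN diet, 5 of 14 genes of lipid-associated macrophages were higher and 1, the macrophage elastase Mmp12, was lower in LiFKO. Mmp12 was 6.20, 5.73 and 5.16 in AMLN LiFKO, against 10.83, 10.63 and 8.85 in AMLN Control, and is named as the single gene of its direction, after its values were seen (log2 fold change -4.41, SE 1.18, adjusted p = 0.0166). It missed the threshold without AMLN LiFKO replicate 3 (-4.14) or replicate 1 (-4.04) or 2 (-4.15) of AMLN Control. The higher ones with the smallest p included Ctsl (1.39), Cd63 (3.37) and Ctsb (0.69), and 14 of 18 lysosomal genes were higher. Stellate cell markers averaged 9.98 to 10.04 in AMLN LiFKO and 10.11 to 10.63 in AMLN Control, with 1 of 10, Col1a1, lower. Of 11 endothelial markers, 1 was higher and 0 were lower, and 8 had a positive fold change. The part of stellate and endothelial cells in the members' values, Mrc1 included, was not tested. Hepatocyte centring gave 876 genes higher and 774 lower here, against 1392 and 1330 as deposited, with 1 member higher and 1 lower.

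In Control mice, all 5 lipid-associated markers and 2 of 3 measured recruited monocyte markers were higher on AMLN diet than on chow, while 1 of 11 resident markers was higher and 1 lower. Of 37 members, 12 were higher and 2 were lower than on chow (limma, adjusted p under 0.05), where 11.2% of all genes were higher and 11.6% lower. At unadjusted p under 0.05 the members numbered 21 higher and 3 lower, where 2465 of the 13815 genes were higher and 2671 lower. Itgax, the integrin CD11c, was 8.34, 8.36 and 8.21 in AMLN Control, against 4.81, 5.83 and 5.50 in chow Control (log2 fold change 2.92, SE 0.56, adjusted p = 0.00287). Lgals3 was 10.13, 10 and 9.77 in AMLN Control, against 7.38, 8.16 and 7.44 in chow Control (2.31, SE 0.38, adjusted p = 0.00118). Spp1 was 12.58, 11.90 and 12.13 in AMLN Control, against 9.94, 9.46 and 10.06 in chow Control (2.38, SE 0.45, adjusted p = 0.00257). None of these 3 overlapped between the groups. Cd9 rose by 1.38 (adjusted p = 0.000274), and Trem2, at 7.92, 8.07 and 6.55 in AMLN Control against 4.81, 4.67 and 5.65 in chow Control, by 2.47 (adjusted p = 0.0313). Trem2 missed the threshold without replicate 1 or 2 of either group (log2 fold change 2.19 to 2.95). Ccr2 was 8.41, 8.11 and 7.65 in AMLN Control, against 6.21, 6.23 and 5.95 in chow Control (1.93, adjusted p = 0.0147; 1.75 without AMLN Control replicate 1, where the call was lost). Cx3cr1 was 7.43, 7.82 and 6.79 in AMLN Control, against 4.81, 4.82 and 5.07 in chow Control (2.45, adjusted p = 0.00923). The third recruited marker, the integrin Itgam, overlapped between the groups. Trem2, Itgax, Ccr2 and Cx3cr1 had low levels, at percentiles 4.1, 13.8, 14.1 and 5.4 of the mean over all genes. The filter on low values dropped them. Of the 31 members left by it, 9 were higher and 2 lower, where all genes left gave 1389 higher and 1446 lower.

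Among the resident markers, 1 of 11 was higher and 1 of 11 lower with the diet in Control liver, against 11.2% and 11.6% of all genes. The haemoglobin scavenger receptor Cd163 was 9.97, 9.86 and 10.01 in AMLN Control, against 10.53, 11.31 and 10.78 in chow Control, lower in every library (log2 fold change -0.93, SE 0.22, adjusted p = 0.00952). Centred on hepatocyte markers the fall was -0.51 and missed the threshold (adjusted p = 0.0678). Cd5l, the secreted protein AIM of Kupffer cells, was 13.58, 13.29 and 13.77 in AMLN Control, against 11.83, 12.93 and 12.49 in chow Control (1.13, adjusted p = 0.0193). That call was lost without chow Control replicate 1 (0.83) or AMLN Control replicate 1 (1.11) or 3 (1.02). The remaining called members were Mpeg1, higher by 1.80 in AMLN Control, Cd68, by 1.06, the cathepsin Ctss, by 0.96, the receptor kinase Axl, by 0.82, and Mertk, lower by 0.32 (log2 fold change -0.32). Cd68 lost its call without chow Control replicate 1 (0.90). Axl lost its call without any of the 6 libraries (0.69 to 0.97) and Ctss without any but chow Control replicate 2 (0.78 to 1.22). Mertk lost it without AMLN Control replicate 1 or 3 or chow Control replicate 2 or 3 (-0.41 to -0.20 over the libraries left out); with hepatocyte centring Mertk turned to 0.10. With the replicate block the adjusted p was 0.0618 for Ctss, 0.0666 for Axl and 0.0536 for Mertk. Marco was 8.39, 8.39 and 8.91 in AMLN Control, against 9.23, 12.05 and 10.64 in chow Control; it did not overlap, but chow Control spread widely and the fold change of -2.08 missed the threshold (adjusted p = 0.118), passing when only these groups were fitted (adjusted p = 0.0457). The 3 complement genes C1qa, C1qb and C1qc had fold changes of 0.48, 0.63 and 0.53 and were not called.

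**Figure D4:**
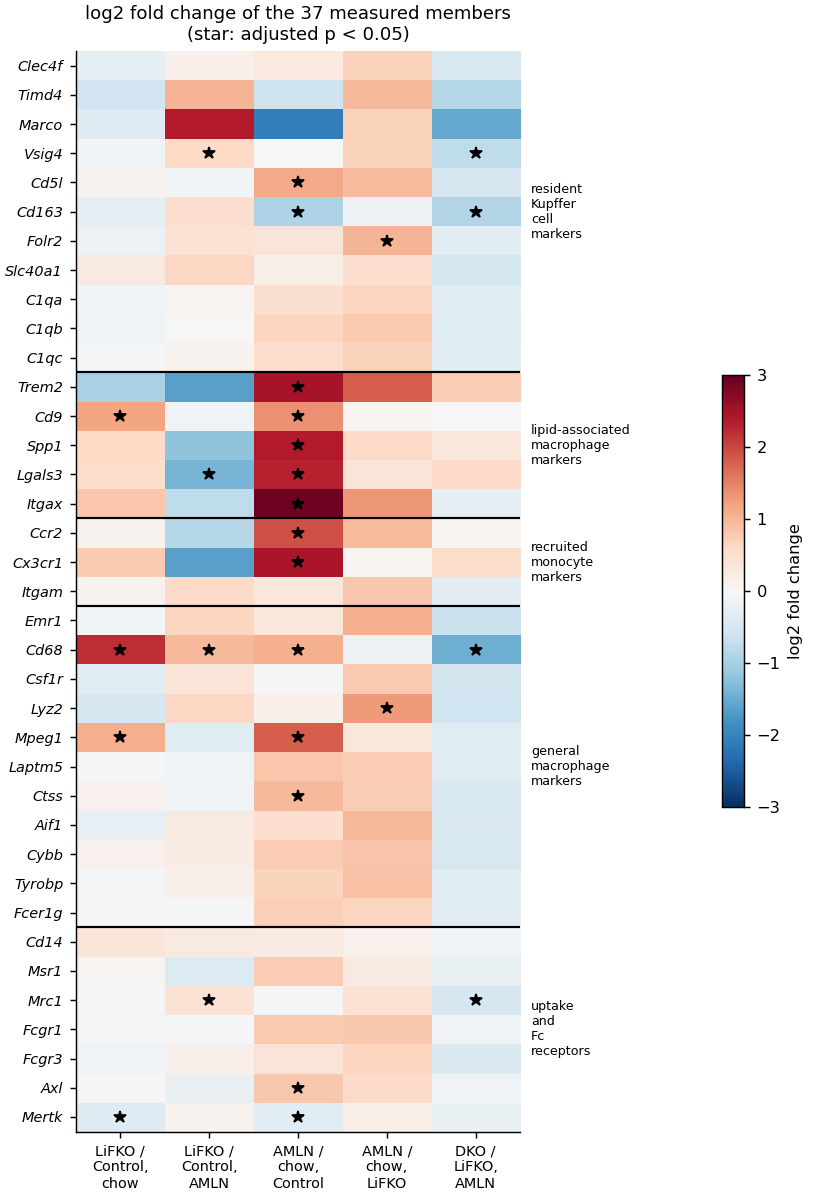
log2 fold change (colour) of the 37 measured members (rows, by class) in 5 comparisons (columns, first-named group over second), with a star where the adjusted p was under 0.05. Lipid-associated markers are starred in all 5 rows for AMLN against chow in Control, and Cd68 is starred in 4 of the 5 columns.

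With the diet in Control, 12 of the 14 other genes of lipid-associated macrophages were higher and 0 lower, with Ctsd (0.76), Gpnmb (5.04), Cd63 (1.86) and the lipase Lpl (2.18) having the smallest p. Of these, Gpnmb had low levels and was dropped by the filter on low values. Of the 16 regulators, 3 were higher, including Zeb2 (0.71), and 2 were lower. Of 12 other leukocyte genes, 2 were higher, against 11.2% of all genes higher and 11.6% lower. At unadjusted p under 0.05, 8 of the 12 were higher and 0 lower, where 2465 of the 13815 genes were higher and 2671 lower. Their median log2 fold change was 0.80, against 0.82 for the diet in LiFKO. Of 10 stellate cell markers, 6 were higher, among them Col1a1 and Col3a1, and their mean was 10.11 to 10.63 in AMLN Control, against 9.43 to 9.88 in chow Control. Of 12 hepatocyte markers, 1 was higher and 6 were lower, and their mean was 17.07 to 17.34 in AMLN Control, against 17.51 to 17.74 in chow Control. Scaling bears on this comparison. Centring each library on the hepatocyte markers moved the median of all genes by 0.42 and changed the split over all genes to 5510 higher and 256 lower, against 1546 and 1608 as deposited. The members' counts became 24 higher and 0 lower, against 12 and 2. Relative to all genes, the members' median of 0.63 stood above -0.04 as deposited, and 1.05 above 0.38 after centring.

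In LiFKO mice, the same diet moved 2 of 37 members past the threshold, both higher. Of all genes 517 were called here, against 3154 for the diet in Control. The members' median log2 fold change was 0.70 here, against 0.63 for the diet in Control. The folate receptor Folr2 of Kupffer cells was 9.85, 10.15 and 10.69 in AMLN LiFKO, against 9.57, 9.24 and 8.83 in chow LiFKO (log2 fold change 1.02, SE 0.26, adjusted p = 0.0468). Lyz2, lysozyme of macrophages, whose reads can be shared with its close copy Lyz1, was 12.62, 13.49 and 12.96 in AMLN LiFKO, against 11.58, 11.94 and 11.74 in chow LiFKO (1.27, SE 0.32, adjusted p = 0.0445). Neither overlapped, but each call was lost without any of the 6 libraries (fold changes 0.79 to 1.21 and 1.04 to 1.47) and with the replicate block (adjusted p = 0.0729 and 0.0608). Over all genes 1.58% were higher and 2.16% lower. At unadjusted p under 0.05 the members numbered 23 higher and 0 lower, where 10.4% of all genes were higher and 10.6% lower by that rule. Of these 23, 9 were among the 11 resident markers and 9 among the 11 general macrophage markers. The median log2 fold changes of these classes were 0.70 and 0.79. The lipid-associated markers had 0 called, with fold changes of 0.38 for Lgals3, 0.57 for Spp1, 0.09 for Cd9, 1.32 for Itgax and 1.81 for Trem2 (2 at unadjusted p under 0.05). Markers of other cells differed between the same libraries. Of 12 other leukocyte genes, 1 was called higher and 8 had an unadjusted p under 0.05, with a mean of 8.83 to 9.62 in AMLN LiFKO, against 8.33 to 8.69 in chow LiFKO. Of 6 erythroid markers, 0 were called and 4 were higher at unadjusted p under 0.05, with a mean of 10.98 to 12.78 in AMLN LiFKO, against 11.10 to 11.655 in chow LiFKO. Of 12 hepatocyte markers, 1 was called higher and 1 lower, with a mean of 17.10 to 17.28 in AMLN LiFKO, against 17.37 to 17.67 in chow LiFKO. The part of these in the members' values was not tested. Each diet comparison shares a group of libraries with each LiFKO against Control comparison, so their values are given side by side without a measure of likeness. Here hepatocyte centring moved the median of all genes by 0.28, gave 1670 genes higher and 112 lower, against 218 and 299 as deposited, and gave 24 members higher and 0 lower.

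The difference between the LiFKO effects on the 2 diets was tested directly. It was called for 1 member, Cd9, whose log2 LiFKO effect was lower by 1.28 on AMLN diet than on chow (difference -1.28, SE 0.25, adjusted p = 0.0284, n = 3 libraries a group, limma), where 0.282% of all genes had a higher and 0.76% a lower effect. Cd9 was 10.15, 10.10 and 9.85 in AMLN LiFKO and 10.38, 10.26 and 9.76 in AMLN Control, so that these overlapped with chow LiFKO and all lay above chow Control. The call held without chow LiFKO replicate 1 or 2, AMLN Control replicate 3 or AMLN LiFKO replicate 1 and was lost without any other of the 12 libraries (differences from -1.47 to -1.13). At unadjusted p under 0.05 the difference was positive for 6 members, 3 of them resident, and negative for 6, 3 of them lipid-associated, where 7.76% of all genes had a higher and 7.95% a lower effect. Hepatocyte centring moved the median of all genes by -0.14 and gave 10 genes with a higher and 106 with a lower effect, against 39 and 105. Lgals3 had a difference of -1.93 (adjusted p = 0.0974), Spp1 of -1.81 (0.178), Cd68 of -1.24 (0.127; 0.0433 when only these groups were fitted) and Mpeg1 of -1.46 (0.123). Of the 14 other genes of lipid-associated macrophages, 2 were called, Gpnmb (-5.64) and Lpl (-2.54). Gpnmb was not called without AMLN Control replicate 1 (-5.38) or 2 (-5.37) or chow Control replicate 2 (-5.12). The filter on low values dropped Gpnmb. The Lpl call was lost with the replicate block and without the trend (limma adjusted p = 0.0886). It was also lost without any single library other than chow LiFKO replicate 1, with differences from -2.98 to -2.26.

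In AMLN-fed mice given AAV8-TBG-Cre, the libraries labelled DKO had less Cd68, Vsig4, Cd163 and Mrc1 than LiFKO. Of 37 members, 0 were higher and 4 lower (limma, adjusted p under 0.05; 0 and 6 at unadjusted p under 0.05), where 5.05% of all genes were higher and 5.97% lower by adjusted p, and 13.1% and 12% by unadjusted p. These groups also differed in Flcn RNA, as given above. Cd68 was 10.14, 9.18 and 8.89 in AMLN DKO, against 10.69, 11.12 and 10.83 in AMLN LiFKO. Every DKO library was below every LiFKO library, and the log2 fold change was -1.48 (SE 0.27, adjusted p = 0.00256), called without any 1 library. Cd163 was 9.68, 9.81 and 9.22 in AMLN DKO and 10.58, 10.05 and 10.72 in AMLN LiFKO (-0.88, SE 0.22, adjusted p = 0.0197). Vsig4 was 10.90, 10.43 and 10.31 in AMLN DKO and 11.002, 11.30 and 11.62 in AMLN LiFKO (-0.76, SE 0.19, adjusted p = 0.0181). Mrc1 was 11.71, 11.39 and 11.60 in AMLN DKO and 11.93, 12.13 and 12.15 in AMLN LiFKO (-0.50, SE 0.14, adjusted p = 0.0343). None of these 3 overlapped. The Cd163 call was lost without AMLN LiFKO replicate 1 (-0.82) or 3 (-0.75) or AMLN DKO replicate 3 (-0.70), the Vsig4 call without AMLN LiFKO replicate 3 (-0.61) or AMLN DKO replicate 2 (-0.70) or 3 (-0.64), and the Mrc1 call without replicate 2 or 3 of either group (-0.58 to -0.42 over the libraries left out) and with the replicate block (adjusted p = 0.0545). The Vsig4 call was also lost when only these groups were fitted (adjusted p = 0.0501) and the Mrc1 call without the trend in the variance (0.0607).

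All 11 resident markers had a negative fold change between DKO and LiFKO, with a median of -0.51, against 0.02 over all genes. Of these 11, 2 were called. This direction was not particular to the class. All 11 general macrophage markers (median -0.47), all 7 uptake and Fc receptors (-0.20) and 9 of 12 other leukocyte genes (-0.28) were negative too. Of 11 endothelial markers, 7 were negative and 1 was called lower, and their part in the members' values was not tested. Of all 13815 genes, 6477 were negative. Of the lipid-associated markers 4 of 5 were positive, and of the recruited ones 2 of 3. Marco was 9.04, 7.95 and 11.21 in AMLN DKO, against 8.83, 12.56 and 11.44 in AMLN LiFKO, and overlapped (-1.54, adjusted p = 0.33). Slc40a1 was 13.002, 13.75 and 13.81 in AMLN DKO, against 14.01, 13.89 and 14.23 in AMLN LiFKO, with no overlap (-0.52, adjusted p = 0.127). Lipid-associated markers had 0 called: Lgals3 was 10.06, 8.66 and 8.72 in AMLN DKO, with replicate 1 above every AMLN LiFKO library (0.58, adjusted p = 0.373), and Trem2 was 8.61, 6.43 and 4.83 in AMLN DKO, a range that spans that of AMLN LiFKO. The Trem2 fold change was 0.73 (SE 0.76, adjusted p = 0.604) and turned to -0.26 without AMLN DKO replicate 1. Of 18 lysosomal genes, 15 were lower in DKO, and of the 14 other genes of lipid-associated macrophages 5 were lower, including Cd63 (-3.69), Ctsl (-1.25) and Ctsb (-0.71). Hepatocyte centring moved the median of all genes by -0.23 here, with 156 genes higher and 1421 lower, against 698 and 825 as deposited, and gave 6 members lower and 0 higher.

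Against AMLN Control, 0 of 37 members were called in DKO in either direction (limma; 0 higher and 2 lower, Lgals3 and Mpeg1, at unadjusted p under 0.05), where 0.449% of all genes were higher and 0.203% lower by adjusted p, and 7.27% and 6.23% by unadjusted p. Cd68 was 10.14, 9.18 and 8.89 in AMLN DKO, against 10.06, 9.82 and 9.82 in AMLN Control, and overlapped; its log2 difference was -0.50 with a 95% interval from -1.07 to 0.07. For Vsig4 the interval ran from -0.58 to 0.23 and for Mrc1 from -0.37 to 0.23, both including 0. Lgals3 had a difference of -0.82 with an interval from -1.63 to -0.01. Centred on hepatocyte markers 0 members were called as well, while all genes gave 36 higher and 200 lower, against 62 and 28.

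Of the 37 measured members, 18 were called in at least 1 of the 7 comparisons and 19 in none, where 46.1% of all genes were called in at least 1. Among resident markers 7 of 11 were never called: the lectin receptor Clec4f, Timd4, Marco, Slc40a1 and the complement genes C1qa, C1qb and C1qc. Clec4f, which is largely restricted to Kupffer cells in mouse liver, was 12.93, 12.47 and 12.29 in AMLN DKO, 12.87, 12.75 and 13.49 in AMLN LiFKO and 12.94, 12.68 and 13.05 in AMLN Control. On chow it was 12.48, 12.34 and 12.18 in LiFKO and 12.31, 12.91 and 12.58 in Control, so that it was high in all 15 libraries and its chow groups overlapped. Among general markers, the macrophage antigen Emr1 (F4/80), the growth factor receptor Csf1r, the signalling adaptors Tyrobp and Fcer1g, the oxidase subunit Cybb, Laptm5 and Aif1 were never called. Emr1 was 10.37, 10.71 and 9.97 in chow LiFKO, against 9.89, 11.29 and 10.13 in chow Control, and the groups overlapped. Its log2 fold change there was -0.09, with a 95% interval from -0.91 to 0.73, while Cd68 in the same libraries had 2.22. The Fc receptors Fcgr1 and Fcgr3, the scavenger receptor Msr1, Cd14 and Itgam complete the 19.

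The positions of TFE3 in liver chromatin were compared with the members' genes in the authors' pooled peak lists (mm9). ChIP was of whole liver, and each list pools its libraries, so no test was made. The chow lists pool 4 libraries each, from mice with 1.5e11 genome copies of virus, and the FPC lists 3 each, with 2.5e11, or with 1.5e11 plus 1e11 of the HA-nSREBP-1c virus. A gene counted as having a peak where a peak overlapped its body or the 10 kb on either side. On chow, 14 of the 37 members had a TFE3 peak in LiFKO (37.8%), against 73.8% of all measured genes, and 3 had one in Control (8.11%), against 48.2% of all genes. All 3 of the Control genes, Cd68, Mertk and Slc40a1, were among the 14 of LiFKO. The chow LiFKO list held 26445 peaks and the chow Control list 11385. By class, the 14 were 2 of 11 resident, 2 of 5 lipid-associated, 2 of 3 recruited and 5 of 11 general markers, and 3 of 7 uptake and Fc receptors.

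On FPC diet, given for 9 days in the study's second ChIP experiment, 23 members had a TFE3 peak in LiFKO+1c (62.2%, against 79.8% of all genes) and 18 in LiFKO (48.6%, against 71.7%). In Control+1c, 23 had one (62.2%, against 43.7%) and in Control 17 (45.9%, against 41.6%). The +1c mice also received a virus for HA-tagged nuclear SREBP-1c. Per the file headers, the lists of FPC Control, Control+1c and LiFKO name a library called input among the pooled ChIP libraries and a TFE3 library as their input, so it is not settled here which antibody those lists stand for. In the HA lists, 0 members had a peak in LiFKO+1c, against 7.24% of all genes, and 0 in Control+1c, against 9.39%; the header of the HA LiFKO+1c list names a TFE3 library among those pooled. Of the 96 peaks in the authors' deposited table of TFE3 peaks that differed between LiFKO+1c and LiFKO, 0 were nearest to a member.

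**Figure D5:**
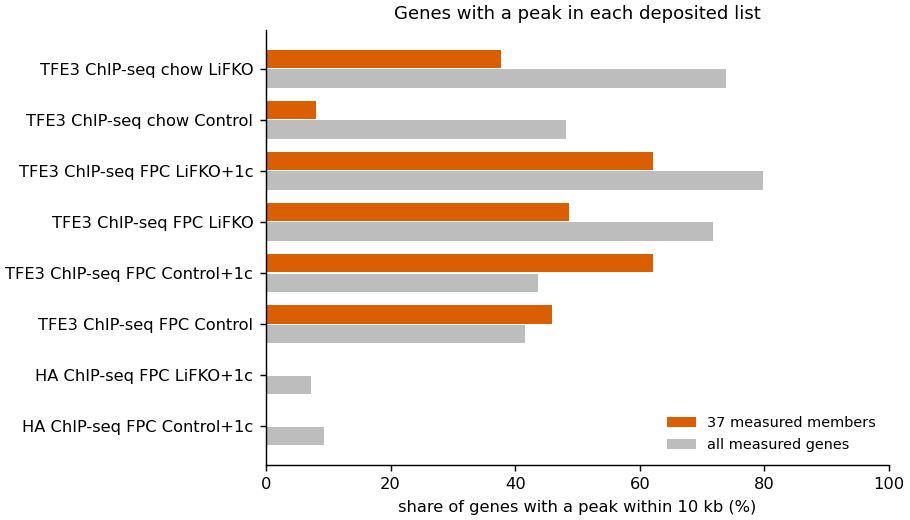
Share of the 37 measured members and of the 13815 measured genes (x axis, percent) with a peak within 10 kb, in each of the 8 deposited lists (rows). On chow the members lie at 37.8% in LiFKO and 8.11% in Control, below all genes at 73.8% and 48.2%.

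Peaks in all 6 lists labelled TFE3 lay near 3 members: Cd68, Mertk and Slc40a1. The antibody of 3 of these lists, FPC LiFKO, Control+1c and Control, is not settled by their headers. Cd68, the member with the smallest adjusted p on chow, had its peaks in a cluster of genes. Its body spans chr11:69477715-69479655, and every one of these peaks lay outside it. In chow LiFKO the strongest of its 4 peaks lay at chr11:69477470-69477656, centred 2092 bases after the Cd68 start, just past its end, with a score of 60.1 and rank 548 of 26445. In the chow Control list, whose 3 peaks near Cd68 lay elsewhere, no peak stood at that place. Those 3 FPC lists each also held a peak centred 101 to 145 bases before the Cd68 start, and it is not settled that these are TFE3 peaks. Senp3, Mpdu1 and Eif4a1 are also within 10 kb of it and are named for that reason only, after the peak was seen. Mertk had 5 peaks in chow LiFKO and 2 in chow Control, one of each centred 52 and 27 bases after its start, with scores of 17 and 10.8. Slc40a1 had 4 peaks in each chow list, in closely matching places. Cd9 had 1 peak in chow LiFKO, inside the gene 16033 bases after its start, with a score of 11.6 and rank 20123 of 26445, and Mpeg1 1, with a score of 15.5. Spp1 had 1, 1632 bases after its start, with a score of 21.1. Trem2, Itgax, Marco, Cd163, Ccr2, Csf1r, Emr1 and Laptm5 had none in any of the 8 lists.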

How the data were processed

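RNA-seq of 15 mouse liver libraries and 8 ChIP-seq peak lists plus 1 table of differential peaks were used. Per the submitters' processing notes, RNA reads were handled with bcl2fastq 2.17, Trimmomatic 0.32, STAR 2.6.0c, SAMtools, featureCounts and limma, with build mm9. The authors deposited log2 expression values per gene, which share 1 distribution over all libraries (the highest value is 21.47 in each), so a change in total RNA cannot be seen. Peaks were called by the authors with HOMER on pooled libraries, per the file headers; the peak score is the authors' and was used only within a list. The authors' deposited table of differential peaks holds log2 fold changes and p-values, of which only the number of peaks and the nearest genes were used. Per the submitters' processing notes, the chow ChIP used Trimmomatic 0.32, Bowtie2 2.2.8, SAMtools 1.7 and HOMER 4.11, and the FPC ChIP Trimmomatic 0.36, Bowtie2 2.2.6, SAMtools 0.1.19 and HOMER 4.4. Depth and counts are unknown.

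The log2 values were fitted with limma 3.58.1 in R 4.3.3, with a mean for each of 5 groups over all 15 libraries and a mean-variance trend; p-values are two-sided and Benjamini-Hochberg adjusted over 13815 genes within a comparison, and a gene was called at an adjusted p under 0.05. The fit was tested on simulated data. Promoters and peaks were read with Python 3.11.15. Alternatives left out each library, added the replicate number as a block, dropped the trend, filtered low values, centred libraries on 12 hepatocyte markers, or fitted only the groups compared. Residuals of same-numbered chow LiFKO and chow Control libraries correlated at 0.113 to 0.237, against -0.188 to 0.043 for the others. In no other pair of groups did every same-numbered correlation lie above the others. Between chow Control and AMLN DKO every one lay below them (-0.136 to -0.051, against 0.023 to 0.087). These values do not settle whether libraries were paired, and the labels name no shared batch. A block over the chow groups, added after the data were seen, gave 4 calls there as well. Members and gene lists were chosen with earlier results of these data known. Overlap between groups was read gene by gene and was not counted over all genes. All members could be named; from each other list at most 4 genes with the smallest p in a comparison were named, other than those said to be chosen after their values were seen. The values of 1 gene among the macrophage regulators are not reported here.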

Additional observations from a re-analysis of the deposited data

Results flagged for a closer look

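The LiFKO effect on Cd9 differed between the diets by a test of the difference itself: the log2 LiFKO effect was -0.10 on AMLN diet and 1.18 on chow, a difference of -1.28 (limma adjusted p = 0.0284, 3 libraries a group). With 1 library left out the adjusted p ran from 0.00822 to 0.0782, and 4 of 12 such fits kept the call. Without the mean-variance trend the adjusted p was 0.0536. Its cause was not tested.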

How the results depend on the processing

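Calls of members near the threshold depended on single libraries and on scaling; the causes were not tested. With each library left out in turn, the number of members called ran from 2 to 3 for LiFKO against Control on chow, from 1 to 6 for the same comparison on AMLN, from 8 to 14 for AMLN against chow in Control, from 0 to 1 for that in LiFKO, from 1 to 5 for DKO against LiFKO, from 0 to 1 for DKO against Control and from 0 to 1 for the difference of the LiFKO effect. Over the same fits, the number of all genes called ran, in that order, from 2695 to 2908 (3545 with every library), from 2046 to 2398 (2722), from 1938 to 3257 (3154), from 175 to 497 (517), from 991 to 1280 (1523), from 24 to 231 (90) and from 27 to 334 (144). The libraries that moved a count most were chow LiFKO replicate 1 on chow (2), AMLN Control replicate 2 (1) for LiFKO against Control on AMLN, chow Control replicate 1 (9) and AMLN Control replicate 1 (8) for the diet in Control, and AMLN LiFKO replicate 3 (1) and AMLN DKO replicate 3 (1) for DKO against LiFKO. Hepatocyte centring gave 2 calls for LiFKO against Control on AMLN and 24 for the diet in Control and in LiFKO. Without the trend the counts were 2 for LiFKO against Control on AMLN, 0 for the diet in LiFKO and 0 for the difference of effects. Fitting only the groups compared gave 1 for the diet in LiFKO and 2 for the difference of effects. Beside the losses given with the results, calls ended without the trend for Vsig4 (adjusted p = 0.0653) and Mrc1 (0.0711) in LiFKO against Control on AMLN, for Ctss (0.065), Axl (0.0689) and Mertk (0.066) with the diet in Control, for Folr2 (0.0746) and Lyz2 (0.0753) with the diet in LiFKO, and for Cd9 (0.0536) in the difference. With only the groups compared they ended for Vsig4 (0.0519) on AMLN, Mertk (0.125) and Folr2 (0.0767).

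With the replicate block, the counts were 4, 3, 11, 0, 3, 0 and 1 in the order of the comparisons above, and among members it changed no call other than those given beside the results. Directions turned for 5 values that were not called in that comparison or setting. Centred on hepatocyte markers, Mertk became 0.098 for the diet in Control and Cd68 0.095 for the diet in LiFKO. With libraries left out, Cd9 ran from -0.29 to 0.02 for LiFKO against Control on AMLN, Lgals3 from -0.018 to 0.742 for the diet in LiFKO, and Trem2 from -0.258 to 1.629 for DKO against LiFKO.

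Without Spp1, resident minus lipid-associated levels were 3.69 in AMLN LiFKO, 2.18 in AMLN Control, 3.91 in chow LiFKO and 4.45 in chow Control. Members with a peak numbered 8 in the chow LiFKO list (63.8% of all genes had one), 14 in FPC LiFKO+1c (69.6%) and 12 in FPC Control+1c (33%) with 1 kb on either side. With 50 kb they numbered 13 in chow Control (68.6%), 27 in FPC Control (65.1%), 2 in HA LiFKO+1c (15.8%) and 3 in HA Control+1c (19.3%). With peaks above the median score they numbered 9 in chow LiFKO (57.1%), 10 in FPC LiFKO+1c (66.1%), 7 in FPC LiFKO (56.0%), 9 in FPC Control+1c (29.6%) and 6 in FPC Control (28.1%).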
